A study of Homo sapiens with 6 samples.

Results

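The TCF/LEF factors and their cofactors are described here in 1CT, a line of human colon epithelial origin that has been immortalized, and in 1CT-A, the derived line in which APC was knocked down. The 10 genes were chosen by name, with earlier results of these data known, as TCF7, TCF7L1, TCF7L2, LEF1, TLE1, TLE2, TLE3, TLE4, BCL9 and PYGO2, and all 10 were found among the 24462 gene symbols of the count files. RNA was measured by QuantSeq, a method that reads the 3′ end of polyadenylated transcripts, in 3 libraries of each cell line. According to the labels, 1CT (HCEC 1CT_WT) had the genotype WT and 1CT-A (HCEC 1CT_APC KD) the genotype APC KD, and both grew untreated in one medium with EGF at 20 ng/ml, hydrocortisone, insulin, sodium selenite, transferrin and 2% FBS. The study describes 1CT-A as a line received from another laboratory and notes a manipulation of hTERT in 1CT. Neither the clonality of 1CT-A nor a vector control for the 1CT libraries was stated in the sources used here, so clone, selection and time in culture cannot be told apart from the depletion of APC. The libraries were not stated to come from separate cultures, so p values measure the spread between these libraries, which may be technical.

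In canonical Wnt signaling, β-catenin that escapes the destruction complex built around APC enters the nucleus and binds TCF/LEF proteins, which sit on DNA through an HMG box and lack a strong activation domain of their own. Without β-catenin the same proteins recruit the Groucho/TLE corepressors and keep target genes low. With β-catenin, BCL9 bridges it to PYGO2, a PHD finger protein that reads methylated histone tails, and transcription is activated. The 4 TCF/LEF genes are not equal in this system, since TCF7L1 is known mainly as a repressor, LEF1 mainly as an activator, and TCF7L2 as the main family member of the intestinal epithelium. LEF1 and TCF7 are also known as Wnt target genes and as regulators of T lymphocyte development.

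Each library held between 7788679 and 12602988 counted reads, and the 1CT-A libraries were deeper by a factor of 1.43 on average. Levels are given as CPM, the reads of a gene scaled to the total counted in that library and multiplied by 1000000. Because 3′ reads do not scale with transcript length, CPM was not divided by length. A count of 3 reads, the smallest taken as visible, equaled 0.355 to 0.385 CPM in the 1CT libraries and 0.238 to 0.269 CPM in those of 1CT-A, a limit that covers counting error only. APC, the depleted gene, was at 49.3, 43.8 and 46.6 CPM in 1CT and at 31.5, 30.02 and 34.4 CPM in 1CT-A. On the log2 scale this was a difference of -0.58 (standard error 0.09, edgeR adjusted p = 1.8e-04), with 1CT-A lower in every library, so the mRNA was reduced in part and not lost. The markers of colon epithelium were read in part. EPCAM, VIL1, CDX1, CLDN3, TFF3 and MUC2, 6 of the 15 markers, had no count in any library, and 9 of the 15, these included, had at most 3. The 3 that could be tested were all called lower in 1CT-A, a call made for 26.0% of all 12514 genes tested. CLDN7 was at 24.3 to 28.0 CPM in 1CT against 17.2 to 24.4 CPM in 1CT-A, ranges that overlapped. KRT18 was at 9.94 to 13.2 CPM in 1CT against 3.23 to 7.02 CPM in 1CT-A. KRT19 had 20 to 34 reads in 1CT and none in 1CT-A, so only 1CT had enough reads for the test. The summed level of the 15 was 41.2 to 45.2 CPM in the 1CT libraries and 23.6 to 30.8 CPM in those of 1CT-A. All 11 mesenchymal markers could be tested, with 3 higher and 5 lower in 1CT-A (72.7% called, beside 51.0% of all 12514 genes tested), and their sum, most of it FN1, was 44978 to 53013 CPM in 1CT against 22181 to 23608 CPM in 1CT-A. Of the 8 T lymphocyte markers, 5 had no count in any library, CD3G and CD8A had at most 3, and IL7R was at 119 to 127 CPM in 1CT against 41.9 to 49.7 CPM in 1CT-A. The 3 endothelial markers had at most 3 counts in any library. In bulk samples, fewer cells of a type and less RNA per cell cannot be told apart.

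The regions before the transcription starts are shown for LEF1 and TCF7L1, the members with the largest rise and the largest fall, and for the inner start of TCF7, the only printed window with a 7 base TCF/LEF motif. Each holds the 250 bases before a start given by RefSeq on GRCh38.p14, 5′ to 3′ on the strand of the gene, and capitals mark the core CTTTG or its reverse complement CAAAG. Matches describe the letters only.
LEF1, chr4:108166302-108166551, minus strand: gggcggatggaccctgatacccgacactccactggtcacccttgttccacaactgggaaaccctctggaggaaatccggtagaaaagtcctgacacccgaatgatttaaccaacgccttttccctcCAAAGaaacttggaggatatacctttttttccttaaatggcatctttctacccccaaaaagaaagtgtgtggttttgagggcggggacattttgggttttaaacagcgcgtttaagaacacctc
TCF7L1, chr2:85133142-85133391, plus strand: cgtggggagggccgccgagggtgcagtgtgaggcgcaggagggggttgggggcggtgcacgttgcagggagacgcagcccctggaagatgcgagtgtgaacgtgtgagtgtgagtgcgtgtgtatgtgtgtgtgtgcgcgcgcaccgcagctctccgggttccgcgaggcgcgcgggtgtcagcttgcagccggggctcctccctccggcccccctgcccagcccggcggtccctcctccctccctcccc
TCF7 inner start, chr5:134123368-134123617, plus strand: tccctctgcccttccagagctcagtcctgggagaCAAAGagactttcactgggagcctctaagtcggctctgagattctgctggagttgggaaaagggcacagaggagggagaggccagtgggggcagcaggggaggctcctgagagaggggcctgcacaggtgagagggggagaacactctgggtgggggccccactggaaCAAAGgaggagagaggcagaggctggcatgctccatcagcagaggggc

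The LEF1 window held 1 core, beginning 124 bases before the start, and the TCF7L1 window held none. The inner TCF7 window held 2, beginning 216 and 48 bases before the start, and the nearer one was part of CTTTGTT read on the opposite strand. The LEF1 window was 47.6% G and C, against 72.0% for TCF7L1. RefSeq listed 17 start windows for the 10 members, all of which were matched. On either strand, CTTTG occurred in 7 of them (41.2%), in LEF1, TCF7, TCF7L2, TLE3 and TLE4, against 42.1% of all 35116 windows of this length. The longer forms CTTTGAT and CTTTGTT, which contain the core, occurred in 2.26% and 4.50% of all windows and in 2 member windows, the inner TCF7 start and an inner start of TCF7L2. The 3′ reads do not show which start a transcript used, so full length TCF7 and the shorter form from its inner start, known to lack the β-catenin binding end, were counted together. Forms of LEF1 from different starts would be counted together in the same way.

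Of the 9 members with enough reads to be tested, 5 differed between the cell lines at an adjusted p under 0.05, with LEF1, TLE3, BCL9 and PYGO2 higher and TCF7L1 lower in 1CT-A. This share is close to the background, since 51.0% of the 12514 genes tested were called, 25.0% as higher and 26.0% as lower. The study's methods name a change of 2 times or more together with p under 0.01, taken here before adjustment. By these thresholds 3 members were called, LEF1, TCF7L1 and BCL9, against 13.4% of all genes tested. The same 5 members were those whose values did not overlap between the cell lines, which held for 59.7% of all genes tested. The median log2 fold change of the 9 members was -0.00079, and that of all genes tested was -0.0067. The share of members was thus near the background by adjusted p and by overlap and above it by the study's thresholds, over 9 genes. TCF7L1, counted in each of these shares, had enough reads for the test in 1CT only, which favours a call.

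**Figure D1:**
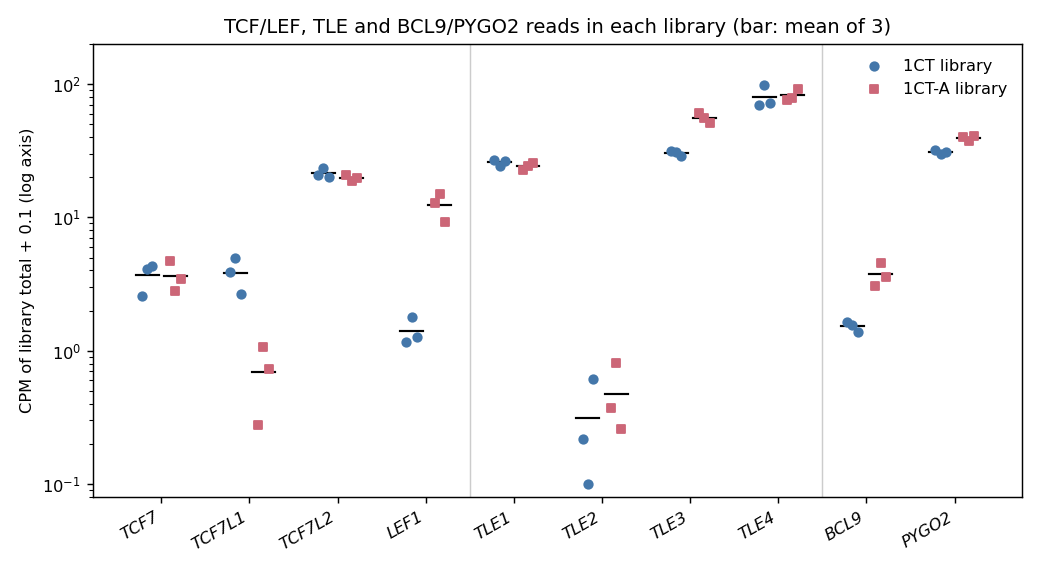
Reads of the 10 genes in each library, as CPM of the library total plus 0.1 on a log axis, with circles for 1CT, squares for 1CT-A and a bar at the mean of 3 libraries. LEF1 stands at 1.06 to 1.69 CPM in 1CT, below its 9.20 to 14.8 CPM in 1CT-A, TCF7L1 goes the other way, and TLE3 separates by less on this scale than either.

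LEF1, the family member known mainly as an activator, had the largest change. It had 9, 14 and 9 reads in the 1CT libraries, which is 1.06, 1.69 and 1.16 CPM, and 143, 169 and 116 reads in the 1CT-A libraries, which is 12.8, 14.8 and 9.20 CPM. Every 1CT-A library lay far above every 1CT library. The mean rose 9.42-fold, from 1.30 ± 0.34 to 12.3 ± 2.85 CPM (SD, n = 3). In the fit this was 3.18 on the log2 scale, with a standard error of 0.27 (edgeR adjusted p = 7.7e-07). LEF1-AS1, the antisense gene that overlaps LEF1, had 1 read in 1 library and none elsewhere. The overlap is one of gene spans, and whether it reaches the 3′ ends read here was not examined. Of the 8 T lymphocyte markers, CD3D, CD3E, CD2, CD247 and PTPRC were at 0 in all 6 libraries, CD3G and CD8A had at most 3 reads, and IL7R was lower in 1CT-A (log2 fold change -1.47, edgeR adjusted p = 2.6e-08). Of the 11 mesenchymal markers, 3 were called higher and 5 lower in 1CT-A (72.7% called, beside 51.0% of all genes tested). Among these, 3 had a log2 fold change of at least 1 in size. TWIST1 and COL3A1 rose (1.87 and 2.37, edgeR adjusted p = 1.7e-07 and 2.7e-07), while FN1 fell (-1.32, edgeR adjusted p = 1.1e-08). The part of these markers in the rise of LEF1 was not tested.

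TCF7L1, the family member known mainly as a repressor, moved in the opposite direction. It had 32, 40 and 20 reads in 1CT, or 3.79, 4.83 and 2.57 CPM, and 2, 11 and 8 reads in 1CT-A, or 0.179, 0.965 and 0.635 CPM. The highest 1CT-A library was below the lowest 1CT library, and 1 of the 1CT-A libraries was under the limit of 3 reads. The mean was 6.28-fold lower in 1CT-A, at 0.593 ± 0.39 CPM against 3.73 ± 1.13 CPM (SD, n = 3). The fitted log2 difference was -2.66, with a standard error of 0.42 (edgeR adjusted p = 1.7e-04). Only 1CT had enough reads of TCF7L1 for the test, which favours a call. With so few reads in 1CT-A the size of this fall is known only within a 95% interval of -3.57 to -1.75.

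TCF7L2, the family member with the most reads in both cell lines, was at 20.8, 23.2 and 20.03 CPM in 1CT and at 20.7, 18.7 and 19.6 CPM in 1CT-A. The ranges overlapped, and the log2 fold change of -0.16 (95% interval -0.40 to 0.08, edgeR adjusted p = 0.256) missed the threshold. The interval did not reach the size of change measured in LEF1 or TCF7L1. TCF7 was at 2.48, 3.98 and 4.24 CPM in 1CT and at 4.57, 2.72 and 3.33 CPM in 1CT-A. These ranges also overlapped, with a log2 fold change of -0.047 whose 95% interval from -0.65 to 0.56 is wide (edgeR adjusted p = 0.900). VDAC1, an abundant gene with 1581 to 3061 reads per library, overlaps TCF7 in RefSeq by gene span. Whether the overlap reaches the 3′ ends read here was not examined, so an effect on the TCF7 count was not tested.

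The changes of LEF1 and TCF7L1 altered the makeup of the family. The 4 genes together had 218 to 279 reads in a 1CT library, or 28.0 to 33.7 CPM, and 413 to 427 reads in a 1CT-A library, or 32.8 to 38.3 CPM, so the summed level overlapped between the cell lines. Within that sum, LEF1 made up 3.78%, 5.02% and 4.13% of the reads in the 1CT libraries and 33.5%, 39.9% and 28.1% in the 1CT-A libraries. TCF7L1 made up 13.4%, 14.3% and 9.17% in 1CT and 0.468%, 2.59% and 1.94% in 1CT-A. For both genes the shares of the cell lines stood apart.
The share of TCF7L2 went from 71.4 ± 2.57% to 54.7 ± 4.81% (SD, n = 3) and did not overlap either, although its own CPM did. The share of TCF7 was 11.9 ± 3.16% and 9.81 ± 2.34% (SD, n = 3), with overlap. For LEF1, TCF7L1 and TCF7L2 an exact two-sided permutation test of the shares gave p = 0.1, the smallest that 3 libraries against 3 allow, and 0.15 after adjustment over the 9 shares and ratios compared. For TCF7 the exact permutation p was 0.5. Shares of reads do not depend on library size or normalization, but they are shares of 3′ reads and not of protein. Within a family they depend on each other, so a larger share of 1 gene lowers those of the others.

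**Figure D2:**
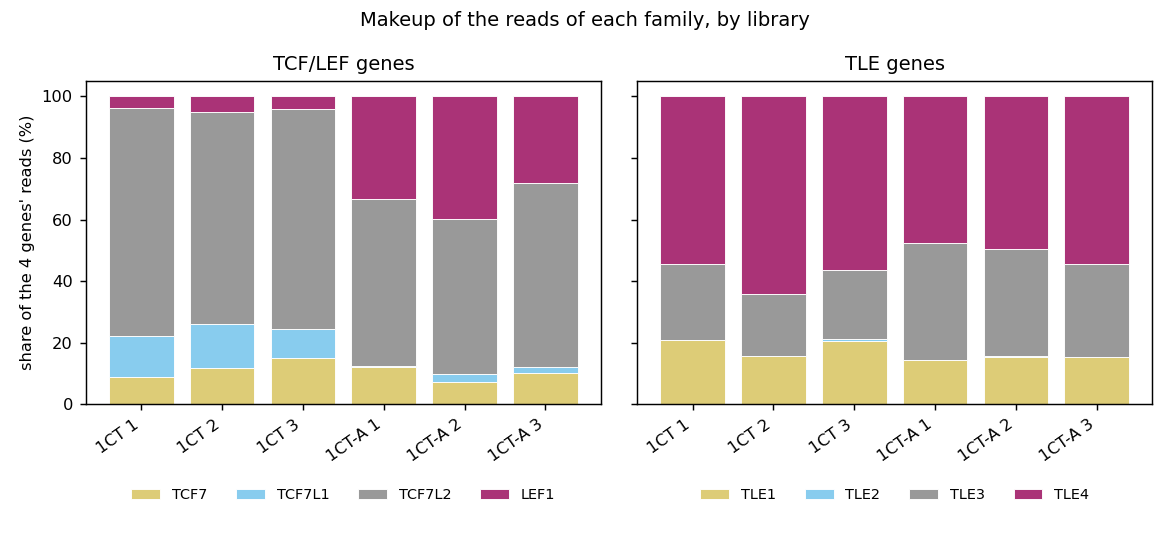
Share in percent of the reads of the 4 TCF/LEF genes (left) and the 4 TLE genes (right) taken by each gene, with 1 stacked bar per library. On the left the LEF1 segment goes from 3.78% to 5.02% in 1CT to 28.1% to 39.9% in 1CT-A while the TCF7L1 segment shrinks to at most 2.59%, and on the right the TLE3 segment widens from at most 24.6% to at least 30.2%.

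Among the Groucho/TLE corepressors, TLE3 was the member that changed. It was at 31.6, 30.8 and 28.9 CPM in 1CT and at 60.3, 55.6 and 50.8 CPM in 1CT-A, with every 1CT-A library above every 1CT library. Its mean rose 1.83-fold, or by 0.83 in the log2 fit with a standard error of 0.09 (edgeR adjusted p = 1.1e-05). TLE4 was at 69.9, 97.8 and 72.5 CPM in 1CT and at 76.1, 78.7 and 91.6 CPM in 1CT-A, and the second 1CT library lay above all others. Its log2 fold change was -0.00079 with a 95% interval of -0.26 to 0.26 (edgeR adjusted p = 0.996), and without that library it was 0.17. TLE1 was at 26.6, 24.03 and 26.6 CPM in 1CT and at 22.8, 24.1 and 25.5 CPM in 1CT-A. The ranges overlapped and the log2 fold change was -0.13 (95% interval -0.35 to 0.09, edgeR adjusted p = 0.308). TLE2 had 1, 0 and 4 reads in 1CT and 3, 8 and 2 reads in 1CT-A, which is too few for the test and no basis for a fold change.

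Of the reads on the 4 TLE genes, TLE3 took 22.4 ± 2.23% in 1CT and 34.3 ± 3.85% in 1CT-A (SD, n = 3). TLE4 took 58.3 ± 5.06% and 50.6 ± 3.52%, and TLE1 took 19.1 ± 2.87% and 14.9 ± 0.52% (SD, n = 3). None of these 3 shares overlapped between the cell lines, each with an exact two-sided permutation p = 0.1, or 0.15 after adjustment over the 9 shares and ratios. The shares depend on each other, so these are not 3 separate changes, and the CPM of TLE1 and of TLE4 overlapped. The TLE4 shares came within rounding of each other, at 54.5% in the nearest library of each cell line, and without the second 1CT library the difference of -7.78 percentage points was -4.91. The 4 TLE genes summed to 128 to 153 CPM in 1CT, against 159 to 168 CPM in the 1CT-A libraries. The log2 ratio of summed TLE reads to summed TCF/LEF reads was 2.19, 2.18 and 2.20 in 1CT and 2.06, 2.10 and 2.36 in 1CT-A. The 1CT-A libraries lay on both sides of the 1CT libraries, and the means differed by -0.017 (exact permutation test, two-sided, p = 1).

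BCL9 and PYGO2, which link β-catenin to chromatin, were both higher in 1CT-A. BCL9 had 13, 12 and 10 reads in 1CT, or 1.54, 1.45 and 1.28 CPM, and 33, 51 and 44 reads in 1CT-A, or 2.96, 4.48 and 3.49 CPM. The cell lines did not overlap, and the mean was 2.56-fold higher, or 1.31 in the log2 fit with a standard error of 0.29 (edgeR adjusted p = 0.00196). PYGO2 was at 32.2, 29.8 and 30.7 CPM in 1CT and at 40.0, 37.2 and 40.5 CPM in 1CT-A. These also did not overlap, but the rise was only 1.27-fold, or 0.31 in the log2 fit with a standard error of 0.09 (edgeR adjusted p = 0.0118). Without the third 1CT-A library the PYGO2 value was 0.29 and missed the threshold (edgeR adjusted p = 0.0508).

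**Figure D3:**
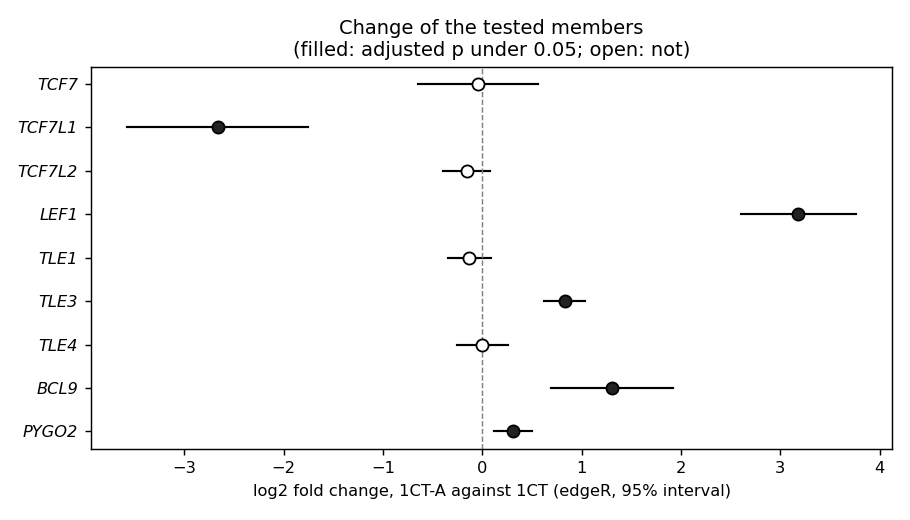
Log2 difference, 1CT-A minus 1CT, for the 9 tested genes on the horizontal axis, with the 95% interval from edgeR as a line and filled points for an adjusted p under 0.05. LEF1 at 3.18 and TCF7L1 at -2.66 lie at opposite ends, and the intervals of TCF7, TCF7L2, TLE1 and TLE4 cross 0.

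Ordered by mean CPM, the members in 1CT ran TLE4, PYGO2, TLE3, TLE1, TCF7L2, TCF7L1, TCF7, BCL9, LEF1 and TLE2. The neighbours PYGO2 and TLE3, TCF7L1 and TCF7, and BCL9 and LEF1 overlapped in CPM between their libraries. In 1CT-A the order was TLE4, TLE3, PYGO2, TLE1, TCF7L2, LEF1, BCL9, TCF7, TCF7L1 and TLE2, with overlap between BCL9 and TCF7 and between TCF7L1 and TLE2. LEF1 moved from rank 9 to rank 6 and TCF7L1 from rank 6 to rank 9, which puts TCF7L1 beside TLE2 near the limit of 3 reads.

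The members act with many other proteins, and 34 further cofactor genes of the TCF/β-catenin complex were listed, 33 of which could be tested. Of these, 11 were higher and 7 were lower in 1CT-A and 15 did not pass, a called share of 54.5% beside 51.0% of all genes tested. Their median log2 fold change was 0.064. On the activating side 6 of 21 were higher and 4 lower, and on the repressing side 5 of 12 were higher and 3 lower. CTNNB1, the gene of β-catenin itself, was at 425, 435 and 428 CPM in 1CT and at 482, 530 and 498 CPM in 1CT-A. The 1CT-A libraries were all above the 1CT libraries by a small margin (log2 fold change 0.19, edgeR adjusted p = 0.0212). TNIK, a kinase that acts on TCF proteins, was the only cofactor with a called log2 fold change of at least 1 in size, falling from 6.86 ± 0.83 to 3.47 ± 0.21 CPM (SD, n = 3; log2 fold change -1.02, edgeR adjusted p = 8.0e-04). After their values were seen, several others were picked as examples. TBL1X, which works with β-catenin at target genes, rose by 0.95 on the log2 scale, and the corepressors CTBP1 and CTBP2 rose by 0.52 and 0.41. NLK, a kinase that restrains TCF/LEF proteins, had a log2 fold change of -0.97, CTNNBIP1, which blocks β-catenin from TCF, -0.48, and TLE5, a short Groucho relative entered under its older symbol AES, -0.34. The edgeR adjusted p of each of these was at most 0.00304.

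**Figure D4:**
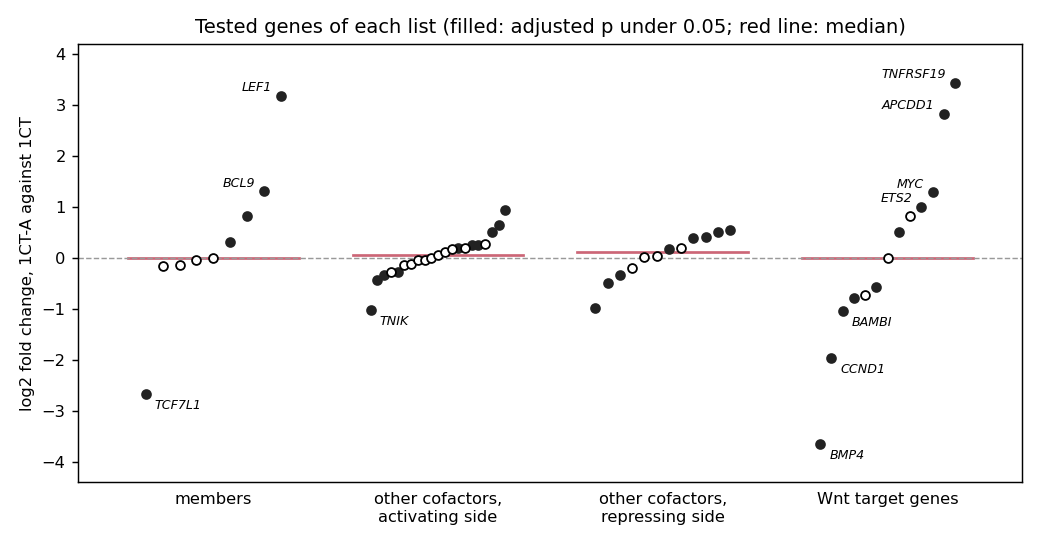
Log2 difference, 1CT-A minus 1CT, for the tested genes of the members, of the other cofactors on the activating and the repressing side, and of the Wnt target genes, sorted within each list, with filled points for an adjusted p under 0.05 and a red line at the median. The other cofactors stay within about -1.02 to 0.95 while LEF1, TCF7L1, BCL9 and several Wnt targets lie outside that range, and all 4 medians lie near 0.

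Wnt target genes were read beside the members, since they are what the complexes act on. Of 24 listed genes, 13 could be tested, and 5 were higher and 5 lower in 1CT-A, with a median log2 fold change of 0.0045. The called share was 76.9% of the 13, beside 51.0% of all genes tested. TNFRSF19, APCDD1 and BMP4 had enough reads to be tested in 1 cell line only, which favours a call. With at least 10 counts required in every library, 7 of the listed genes were called, beside 5605 of all 11252 genes tested under that filter. Among the higher genes, TNFRSF19, a receptor of the TNF family, had 4, 3 and 2 reads in 1CT and 33, 50 and 65 in 1CT-A (log2 fold change 3.43, edgeR adjusted p = 1.3e-05). APCDD1, a membrane inhibitor of Wnt signaling, had 0, 4 and 3 reads in 1CT and 25, 25 and 26 in 1CT-A (2.83, edgeR adjusted p = 5.6e-04). MYC and the transcription factor gene ETS2 also rose, with log2 fold changes of 1.29 and 1.01 (edgeR adjusted p = 1.2e-04 and 2.2e-06). In each of these genes the 1CT-A libraries all lay above the 1CT libraries.
Among the lower genes, BMP4, a secreted ligand of the BMP pathway, was at 9.46, 10.7 and 10.3 CPM in 1CT and at 0.627, 0.702 and 1.11 CPM in 1CT-A (log2 fold change -3.64, edgeR adjusted p = 1.1e-07). CCND1, the gene of cyclin D1, and BAMBI, a decoy receptor of the BMP pathway, had log2 fold changes of -1.96 and -1.04 (edgeR adjusted p = 2.6e-09 and 0.00547). Feedback and receptor genes differed in how well they could be read. ZNRF3, a ligase that removes Wnt receptors, and EPHB2, a receptor of intestinal crypt cells, both picked after their values were seen, had 88 to 290 and 209 to 360 reads per library and log2 fold changes of 0.52 and -0.78 (edgeR adjusted p = 0.011 and 2.0e-04). AXIN2 had 1 read in each 1CT library and 9, 1 and 5 reads in the 1CT-A libraries, and LGR5 had 1 read in all 6 libraries together. At most 3 reads in any library were counted for 9 of the 24 genes, so a change in these was not detectable at this depth.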

How the data were processed

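The values deposited by the authors are raw counts, whole numbers of reads per gene symbol, neither normalized nor pooled, from QuantSeq 3′ libraries made with 500 ng of RNA. The submitters' processing notes name Bowtie2, edgeR and the build hg19, with no role or version. The counting tool, annotation and strand setting are not given in the sources used here. Each file has 25737 entries, and counts of the 286 symbols entered repeatedly, none a member, were summed.

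CPM is scaled to the file's total. The comparison of 1CT-A with 1CT was fitted by the quasi-likelihood method of edgeR 4.0.16 (R 4.3.3), tested on simulated data. TMM factors ran from 0.976 to 1.02, low genes were removed by filterByExpr (at least 10 counts), no block was used, and p-values of 12514 genes were adjusted by Benjamini-Hochberg. Calls are at an adjusted p under 0.05. Intervals are 95% intervals of the fit. Shares were compared by exact two-sided permutation tests. The study's methods state a two-tailed t-test with a fold change of 2 and a p cutoff of 0.01, and name no adjustment. Those thresholds were applied to the edgeR fit, with p taken before adjustment.

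Named genes are the 10 members, APC, CTNNB1, AXIN2, LGR5, MYC, CCND1, and cofactors or targets called with a log2 fold change of at least 1 in size, plus the markers and examples named as such. The members and lists were chosen with earlier results of these data known. Promoter windows come from RefSeq on GRCh38.p14, matched by symbol, and describe that build and not the authors' hg19 counting. Alternatives were other normalizations, filters, DESeq2 1.42.0, limma-voom (limma 3.58.1), the replicate block, stricter thresholds and each library left out.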

Additional observations from a re-analysis of the deposited data

How the results depend on the processing

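The 5 member calls, LEF1, TLE3, BCL9 and PYGO2 higher and TCF7L1 lower, were also made with DESeq2's size factors, library size only, upper quartile, no filter, DESeq2 and limma-voom. With at least 10 counts required in every library, LEF1 and TCF7L1 were no longer tested. Under that filter 3 of the 7 tested members were called, beside 5605 of all 11252 genes tested. At an adjusted p under 0.01, PYGO2 was lost and 4 members were called, beside 4671 of all 12514 genes tested. By the study's thresholds (2 times or more, p under 0.01, taken here before adjustment), 3 members, 1 further cofactor and 1676 genes in all were called. With each library left out in turn, 4 to 5 members were called, beside 5364 to 6551 genes in all, with 12560 to 12886 tested. The log2 fold change of TCF7 ran from -0.27 to 0.12 and that of TLE4 from -0.091 to 0.17, neither called. TLE4, near 0 in the main result, was above 0 with DESeq2 (1.1e-04), its size factors (2.9e-04), library size only (0.036), limma-voom (0.011), no filter (0.045) and the replicate block (0.0079). Without single libraries the TLE2 share differed by -0.032 to 0.19 percentage points and the log2 ratio of TLE to TCF/LEF reads by -0.11 to 0.039. The numbers 1 to 3 were not used to pair the libraries. Deviations of same-numbered libraries correlated at -0.16, 0.22 and -0.14 over 8224 genes, and the libraries did not each correlate best with their own number. With 3 libraries per cell line these values cannot show whether the libraries were paired. The replicate block called 6091 genes against 6388, and 5 members. Depth limited TLE2, AXIN2 and LGR5, and it left TCF7L1 in 1CT-A and LEF1 in 1CT with at most 14 reads a library.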

Other observations

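The 3 genes whose pattern over the 6 libraries was most like that of LEF1, among the 8224 tested genes averaging 10 CPM or more, were RPL4, a ribosomal protein gene, TIMELESS, a gene of the replication fork, and TFPI, an inhibitor of blood clotting. Pearson's r of log2(CPM + 1) was 0.999 for each, as a description over 6 libraries that fall into the same 2 cell lines. Their log2 fold changes of 0.25, 0.80 and 0.33 were far smaller than the 3.18 of LEF1.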
